A study of Zea mays with 42 samples.

Results

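Root-restricted probe sets are those of the Affymetrix maize array whose signal in root far exceeded that in every other tissue profiled. A maize probe set was taken as root-restricted where its mean root signal was at least 200 and at least 8 times the highest of the other 13 tissue means, with means under 100 set to 100. The genes nas1, nas2, nrt2 and zrp4 were left out of the choice, and none of their 7 probe sets met both thresholds. The rule gave 58 of 17555 maize probe sets, or 0.330%. Of these, 8 carry the name of a gene in the gene table used here, for 7 different genes, and the other 50 are given by their probe set IDs. The 58 IDs hold 54 different cluster numbers, since 3 clusters (Zm.2376, Zm.18054 and Zm.16176) contributed 7 members, and members of 1 cluster can read the same or closely related transcripts.

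The series holds 42 arrays of untreated B73, a maize inbred line, from 14 tissues with 3 biological replicates each. Root, stem, stem tip and leaf were taken at the big trumpet stage, and silk and ear before pollination. The 8 seed tissues are embryo and endosperm at 10, 15, 20 and 25 days after pollination (DAP). Values are MAS5 signals on a linear intensity scale, and a signal of 100 is used here as the floor for weak signals. The root tissue was not subdivided, so a root signal averages over tips, hairs and older zones, and a smaller share of a cell type cannot be told apart from less RNA per cell.

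Roots take up water and mineral nutrients, anchor the plant and build walls that seal the vascular core from the soil. Class III peroxidases are secreted haem enzymes that oxidise phenolic compounds in the cell wall, where lignin and suberin are laid down. Aquaporins are membrane channels that let water and small solutes through, and those of the TIP class lie in the vacuolar membrane. Reductases of 12-oxophytodienoate (OPR) act on cyclic oxylipins, and some of them serve the synthesis of the hormone jasmonate.

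The root arrays did not replicate as closely as those of other tissues. Over log2 signals of all probe sets, root replicate 1 correlated at r = 0.930 and 0.932 with root replicates 2 and 3, which correlated with each other at 0.985. The median over all arrays of the mean r to the other replicates was 0.991, and outside root the lowest was 0.964, for stem replicate 2. Root replicate 1 also had the highest log2 ratio of 3' to 5' GAPDH signal among root arrays, 1.45, against 1.21 and 1.07, while arrays outside root spanned -0.41 to 1.47. For actin it had the lowest ratio of the root arrays, -6.14, against -4.82 and -5.62, with -6.34 to -2.03 outside root. Summed signals of 10 zein probe sets, markers of endosperm, were 1333, 1674 and 1430 in root replicates 1, 2 and 3, against 99355 to 163133 over the endosperm arrays, and those of 8 embryo probe sets were 675, 604 and 659 in root, against 27333 to 78329 over the embryo arrays. Those of 12 photosynthesis probe sets were 7307, 3250 and 6877 in root, against 141861 to 149148 in leaf. The zein and embryo sums in root lay within those of the other non-seed tissues, and the photosynthesis sums in root were the lowest of the 14 tissues. Results that rest on the root arrays are given for each replicate.

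Members had strong signals in root and weak ones elsewhere, which is what the rule selects and is given as a description without a test. The ratio of root to the highest other tissue ran between 8.06 and 135, with a median of 16.2. It was at least 16 for 29 members, at least 32 for 9 and at least 100 for 2. Mean root signals lay between 877 and 20388, with a median of 2910, and the median member stood at the 85.1 percentile of root means over maize probe sets. The members' median signal over tissues other than root was lowest in embryo at 15 DAP, 49.5, and highest in endosperm at 20 DAP, 86.3. For 18 members every other tissue had a mean under 100, so their ratio is relative to the floor of 100 and not to a measured mean.

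**Figure D1:**
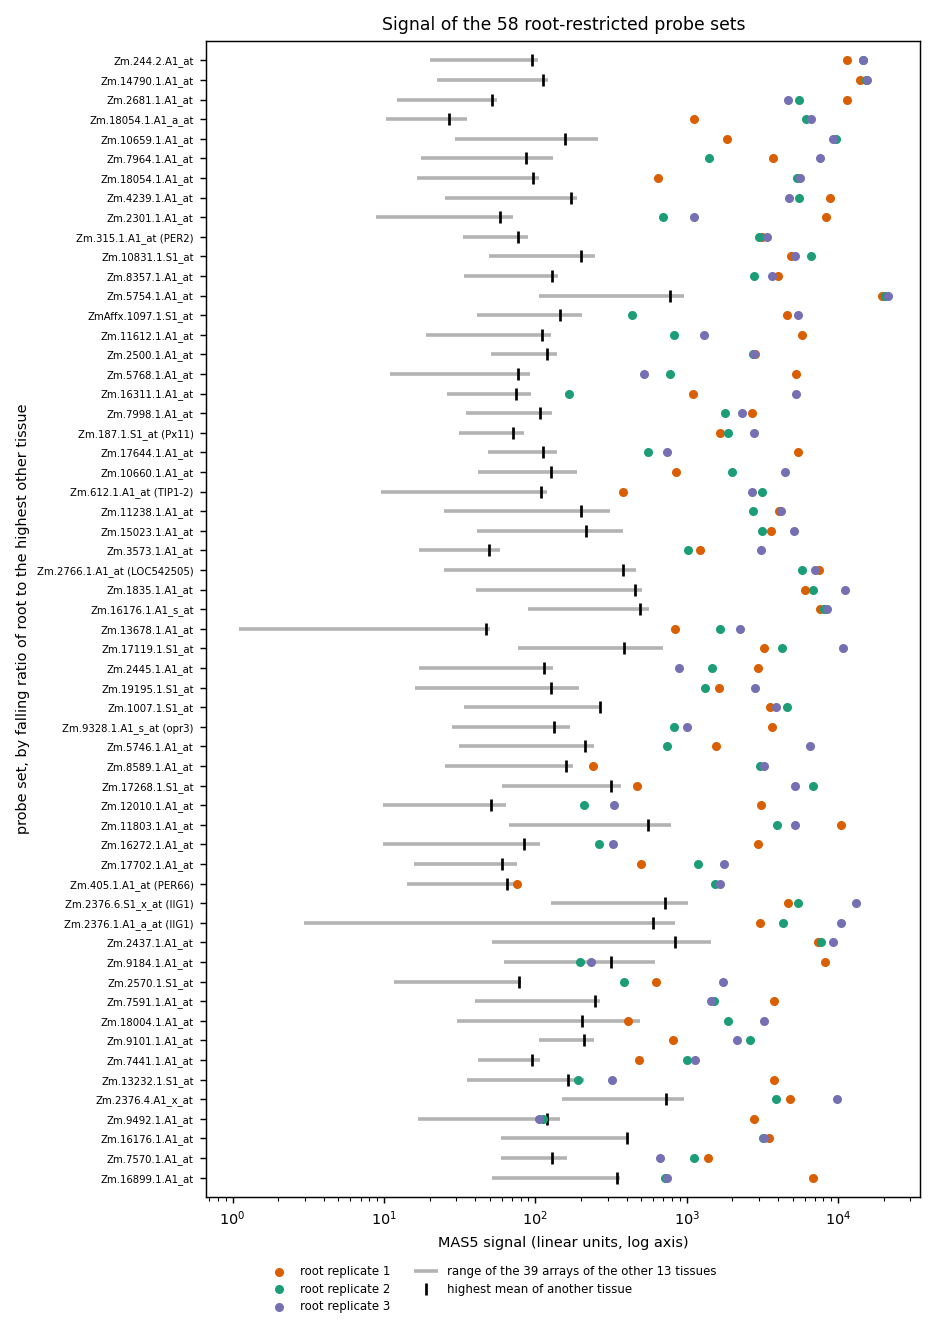
MAS5 signal (linear units on a log axis) of each of the 58 root-restricted probe sets, with 1 point per root array, a grey bar over the range of the 39 arrays of other tissues and a black mark at the highest mean of another tissue. In 53 of 58 rows all 3 root points lie to the right of the grey bar, and in many rows root replicate 1 lies far from replicates 2 and 3.

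The pair of members with the largest ratios were unnamed and replicated closely. Zm.244.2.A1_at had root signals of 11519, 14534 and 14488 in replicates 1, 2 and 3, and its highest mean elsewhere was 95.7. Zm.14790.1.A1_at had 13904, 15393 and 15485 in root, with a highest mean of 111 elsewhere. Their highest arrays outside root read 105 and 121, and they are the 2 members with a ratio of at least 100. Zm.244.1.A1_at, which bears the same cluster number as the first, is listed as the glutathione transferase gene GST3 and is no member, with means of 10377 in root and 12181 in silk. The member with the highest root signal, Zm.5754.1.A1_at, read 19407, 20426 and 21330 in root, but its ratio was 26.2, since it also reached a mean of 779 in endosperm at 20 DAP. Zm.2681.1.A1_at was the third by ratio, 71.9, with root signals of 11428, 5497 and 4632.

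The next members by ratio, PER2 aside, were less even over the root arrays, with the highest at least 1.87-fold above the lowest. Zm.18054.1.A1_a_at read 1114, 6120 and 6612 in root replicates 1, 2 and 3, and Zm.18054.1.A1_at of the same cluster 647, 5322 and 5560. Zm.10659.1.A1_at read 1834, 9697 and 9235. In these 3 probe sets replicate 1 was low, while in Zm.4239.1.A1_at it was the highest of 8901, 5519 and 4747. Zm.7964.1.A1_at read 3687, 1393 and 7555, and Zm.2301.1.A1_at 8299, 700.3 and 1123. All root arrays of these 6 probe sets lay above every array of the other tissues.

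Around the threshold, members and excluded probe sets differed little in ratio. Just inside lay Zm.16176.1.A1_at with 8.23, Zm.7570.1.A1_at with 8.13 and Zm.16899.1.A1_at with 8.06. Just outside lay Zm.11196.1.A1_at with 7.91, Zm.3918.1.S1_at with 7.68 and Zm.17630.1.A1_at with 7.62. The nitrate transporter gene nrt2 followed close behind, with a ratio of 7.60 and a mean root signal of 1971.

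Class III peroxidases were the enzyme family with most named members. PER2 (Zm.315.1.A1_at), also listed as pox2, read 3127, 3004 and 3367 in root replicates 1, 2 and 3, and its highest mean elsewhere was 77.2 ± 10.9 in leaf (SD, n = 3). Px11 (Zm.187.1.S1_at) read 1648, 1886 and 2770 in root, and at most 71.1 ± 13.8 elsewhere, in embryo at 25 DAP. All 13 other tissue means of both genes stayed under 100. PER66 (Zm.405.1.A1_at) read 76.0 in root replicate 1, against 1533 and 1654 in replicates 2 and 3, with a highest mean elsewhere of 65.1 ± 10.5 in endosperm at 20 DAP. Its replicate 1 thus lay within the range of the other tissues, whose highest array read 76.5, and the membership of PER66 rests on replicates 2 and 3. Over these replicates the 3 peroxidases had their strong signals in root alone.

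The class III peroxidases that are not members were also called higher in root than in the other non-seed tissues, but were not restricted to root. Between root and the mean of the other 5 non-seed tissues, 11.2% of 17621 probe sets were called higher in root and 12.6% lower by limma (adjusted p under 0.05, at least 2-fold, mean signal of at least 100 on the higher side). All 5 class III peroxidases that the gene table names were called higher in root, of which 3 are the members, whose root signal chose them. The other two were PRX1 (pox1), with a log2 fold of 2.24 ± 0.19 (SE, limma adjusted p = 3.82e-12), and PER42, with 1.50 ± 0.46 (limma adjusted p = 0.00574). PRX1 averaged 4036 in root, against 1984 in stem tip, the highest other tissue. PER42 averaged 1450 in root, against 7348 in leaf, so that it was called against the average of 5 tissues although leaf read higher than root.

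The aquaporin TIP1-2 (Zm.612.1.A1_at), a channel of the vacuolar membrane, was the only member among 36 aquaporin probe sets. It read 378, 3134 and 2683 in root replicates 1, 2 and 3, and its highest means elsewhere were 109 ± 10.1 in leaf and 62.1 ± 39.7 in stem (SD, n = 3). Replicate 1 was low in root, though above every array of the other tissues. Of the 36 aquaporin probe sets 11 were called higher in root than in the other non-seed tissues and 3 lower, with a median log2 fold of 0.36, against -0.05 over all probe sets. Both the count of 11 and the median include TIP1-2, whose root signal chose it. PIP1-5 (5.23 ± 0.28), TIP2-3 (4.32 ± 0.25) and TIP2-2 (4.13 ± 0.21) had the largest log2 folds among the non-members (SE, limma adjusted p = 2.91e-17 for PIP1-5, 2.63e-16 for TIP2-3 and 1.19e-17 for TIP2-2). Each of them had a tissue outside root with a mean signal above 600, for PIP1-5 leaf with 3339, for TIP2-3 endosperm at 25 DAP with 634 and for TIP2-2 silk with 1616.

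The reductase gene opr3 was a member through 1 of its 2 probe sets. Zm.9328.1.A1_s_at read 3668, 829 and 1002 in root replicates 1, 2 and 3, and 134 ± 33.0 in leaf, its next tissue (SD, n = 3). Zm.9328.1.A1_at had the same order over the replicates, 1476, 273 and 314, and missed the rule with a ratio of 6.88. The suffix of the member probe set marks probes shared by related transcripts, so its values may hold signal of relatives. Replicate 1 was the highest array for both probe sets, opposite to TIP1-2 and PER66. Of 7 OPR probe sets 4 were called higher in root than in the other non-seed tissues and none lower. Both probe sets of opr3 are among the 4, and 1 of them is the member, whose root signal chose it. The others were opr1 (log2 fold 3.93 ± 0.33, limma adjusted p = 4.26e-12) and opr5 (2.61 ± 0.15, limma adjusted p = 4.14e-16), which averaged 5986 in leaf and 3055 in silk and so were not restricted to root. The probe set of opr7 (0.24 ± 0.14) and both of opr8 (0.35 ± 0.15 and 0.27 ± 0.11) were not called. Which of these genes serve jasmonate synthesis was not tested. Among lipoxygenase, allene oxide synthase and allene oxide cyclase genes (lox, aos and aoc), which held no member, 4 of 6 probe sets were called higher in root and none lower. These were both probe sets of lox1, that of lox3 and 1 of 2 of aoc1, and that of aos1 was not called.

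IIG1, listed also as piip1, had the highest root signals among named members together with LOC542505. Its probe set Zm.2376.6.S1_x_at read 4638, 5416 and 13027 in root replicates 1, 2 and 3, and 723 in silk, the highest other tissue. Zm.2376.1.A1_a_at read 3024, 4316 and 10515 in root, and 603 in silk. Replicate 3 was the highest for both. The suffix of Zm.2376.6.S1_x_at marks probes shared by related transcripts, so that its values may hold signal of relatives. That of Zm.2376.1.A1_a_at marks probes shared by transcripts of the same gene. The unnamed member Zm.2376.4.A1_x_at bears the same cluster number and read 4812, 3869 and 9832 in root. Zm.2376.3.S1_a_at and Zm.2376.3.S1_at, unnamed non-members of this cluster, averaged 3753 and 1833 in root, against 4981 and 2388 in endosperm at 20 DAP.

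IIG1 has 6 probe sets in all, and they did not give the same picture. Besides the 2 members, 3 had ratios of 5.33, 6.26 and 6.87, while Zm.2376.7.A1_at had its highest mean in endosperm at 20 DAP, 3347, against 1282 in root. Together with the related IIG2, 6 of 7 probe sets were called higher in root than in the other non-seed tissues and none lower, and Zm.2376.7.A1_at was not called. Of the 6 called, 2 are the members, whose root signal chose them. The gene LOC542505 (Zm.2766.1.A1_at) read 7488, 5758 and 6981 in root, and 381 ± 78.1 in leaf (SD, n = 3). Its root arrays agree closely, and each lay above every array of the other tissues.

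**Figure D2:**
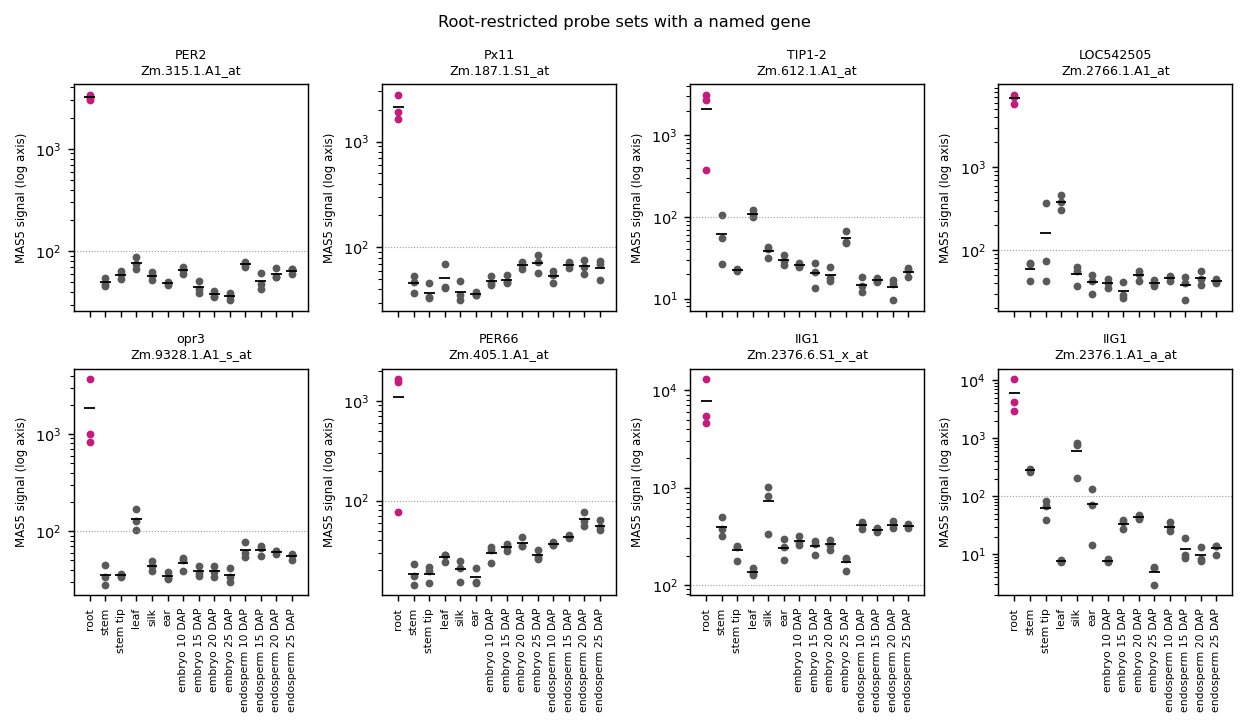
MAS5 signal (log axis, scaled to each panel) of the 8 members with a named gene in 14 tissues, root first, with 1 point per array and a bar at the mean of 3 replicates; the dotted line marks a signal of 100. PER2 and Px11 stay under 100 outside root, PER66 and TIP1-2 have 1 low root array, and IIG1 has its next highest means in silk.

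Other gene families held no named member and were mixed in direction. Counted as probe sets called higher and lower in root than in the other non-seed tissues, phytosiderophore and metal genes had 4 and 0 of 10, genes of nitrogen and phosphate uptake and assimilation 2 and 2 of 7, and benzoxazinoid genes, which make defence compounds of grasses, 1 and 3 of 6. Glutathione transferases had 17 and 6 of 35, expansins, which loosen cell walls, 3 and 6 of 17, a list of transcription factors 1 and 6 of 22, and lipid transfer proteins 0 and 3 of 4. All 6 transcription factor probe sets called lower are listed under MADS names and had their highest mean in silk or ear. The 4 lipid transfer probe sets all carry 1 symbol, PLTP, and so do not sample a family. The 4 metal probe sets were 3 of nas1, which the rule left out, and 1 of ys1, a transporter of iron chelates. The nitrate transporter gene nrt2 and the phosphate transporter gene pht1 were called higher, and 2 glutamine synthetase genes lower. Outside this list of 7 the glutamine synthetase gene GLN6 was called higher, with a log2 fold of 2.94 ± 0.20 (SE, limma adjusted p = 2.93e-14). Those named gln3 and gln5 were not called. The transcription factor list was matched by alias and includes betl2 and nfc101, which are not transcription factors and were not called. The chitinase gene chn1 and zrp4, the single entries of the defence and root development lists, were called higher. Markers of other tissues had 0 and 6 of 12 (photosynthesis), 0 and 0 of 10 (zeins) and 0 and 0 of 8 (embryo). The gene table pairs only 1452 probe sets with 1 gene symbol, so these lists hold part of each family.

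The root replicates of members diverged more often than those of other probe sets. The highest root array was at least 4-fold above the lowest in 25 of 58 members (43.1%), and at least 10-fold in 12. Among the other 11473 maize probe sets with a root mean of at least 200 the 4-fold gap was found in 978 (8.52%). The same rule applied to leaf gave 136 leaf-restricted probe sets, of which 0 had such a gap between leaf replicates, and applied to silk it gave 28, of which 2 had one (7.14%). The median SD of log2 signal over root replicates was 0.89 for members and 0.31 for the other probe sets. A mean that 1 high array carries can meet the rule, so the choice itself favours such probe sets, and how much of the excess this accounts for was not tested.

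Root replicate 1 differed from both other root arrays in both directions. In 10 members (17.2%) it was at least 4-fold above both other root arrays, against 2.50% of the 11531 maize probe sets with a root mean of at least 200. In these 10 members replicate 1 read 2792 to 8299, and replicates 2 and 3 read 106 to 1300. In 8 members (13.8%) it was at least 4-fold below both, against 2.82%, with 76.0 to 1834 in replicate 1 and 1533 to 9697 in replicates 2 and 3. All 3 root arrays agreed within 2-fold in 18 members (31.0%), against 72.2%. The low group included TIP1-2, PER66 and both probe sets of Zm.18054, and the high group held no named gene. On replicate 1 the ratio of 3' to 5' signals was the highest of the root arrays for GAPDH and the lowest for actin, and their part in these differences was not tested.

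**Figure D3:**
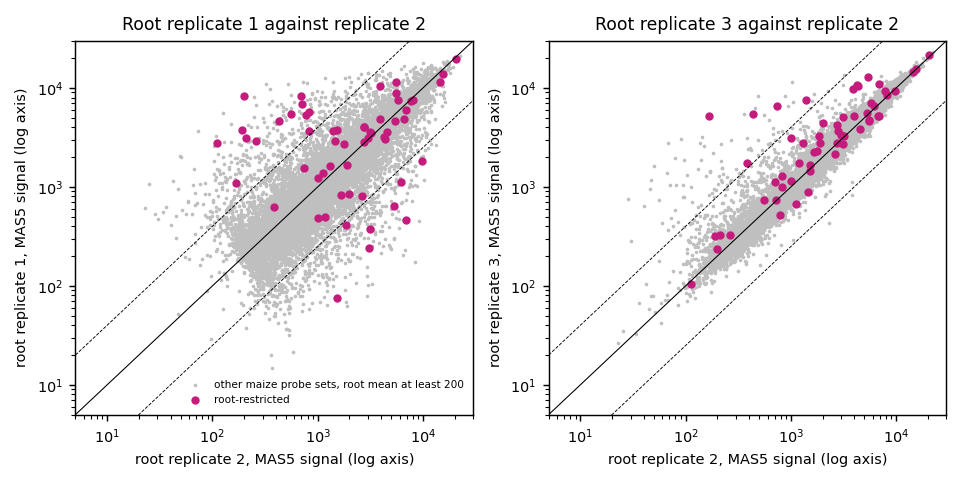
MAS5 signals of single probe sets on pairs of root arrays (both axes log), with replicate 1 against replicate 2 on the left and replicate 3 against replicate 2 on the right; pink points are the 58 members, grey points the other 11473 maize probe sets with a root mean of at least 200, the solid line marks equality and the dashed lines 4-fold. Members fall outside the dashed lines on both sides in the left panel, and on the upper side alone in the right panel.

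By the SD of log2 signal, the spread was widest in Zm.9184.1.A1_at, with 8234, 199 and 233 in root replicates 1, 2 and 3, and in Zm.9492.1.A1_at, with 2792, 112 and 106. In both, replicates 2 and 3 lay within the range of the other tissues, whose highest arrays read 613 and 145. PER66 came next by this SD. It was narrowest in Zm.2500.1.A1_at, with 2834, 2723 and 2795, followed by Zm.16176.1.A1_at and Zm.5754.1.A1_at. In 5 members (PER66, Zm.9184.1.A1_at, Zm.18004.1.A1_at, Zm.13232.1.S1_at and Zm.9492.1.A1_at) the lowest root array did not exceed every other array.

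Taken 1 root array at a time, 25 members met the rule on each of the 3. Replicate 1 alone gave the rule for 43 members, replicate 2 for 37 and replicate 3 for 46. For 10 members replicate 1 met it and neither of the others did, among them opr3, and for 10 others replicates 2 and 3 met it and replicate 1 did not, among them TIP1-2 and PER66. Among named members PER2, Px11 and LOC542505 met it on each array.

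Probe sets were also chosen on 2 replicate numbers and read on the arrays of the third, which the choice had not used. Of 56 chosen without the replicate 1 arrays, 30 were at least 8-fold and 51 at least 2-fold above the highest other tissue on those arrays, where 0.501% and 3.77% of all maize probe sets were. Of 69 chosen without the replicate 2 arrays, 35 and 57 were, against 0.291% and 1.77%, and of 58 chosen without the replicate 3 arrays, 37 and 51 were, against 0.387% and 2.05%. The median held-out ratios were 10.5, 8.27 and 14.8 for replicates 1, 2 and 3. Only 2, 3 and 3 of the chosen probe sets were not above the highest other tissue on the held-out arrays. Root enrichment thus carried over to unused arrays for most probe sets, at a smaller ratio for many.

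Outside root, members were weak but not uniformly so. Of 754 member values in other tissues 217 (28.8%) were at least 100. Every other tissue mean was at least 100 in 5 members (Zm.5754.1.A1_at, Zm.16176.1.A1_s_at, Zm.2376.6.S1_x_at, Zm.2376.4.A1_x_at and Zm.9101.1.A1_at). The highest tissue after root was an endosperm stage for 23 members, an embryo stage for 6 and a non-seed tissue for 29, of which leaf had 10, silk 8, stem 8, stem tip 2 and ear 1. Endosperm at 20 DAP had most members with a mean of at least 100, 23, and ear the fewest, 12.

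Differences among the other tissues were tested with limma in comparisons without root, with the spread pooled over all 42 arrays. With the root arrays left out of the fit all 50 calls described here held. The rule caps the signal of every tissue outside root, which lowers the chance that a member meets the signal minimum. The pooled spread also takes in the root arrays. Their replicates lay at least 4-fold apart in 43.1% of members, against 8.52% of other maize probe sets with a root mean of at least 200. A wide root spread raises a member's SE in comparisons without root too, and how many calls this cost was not tested. The members' shares are thus read as descriptions beside the shares over all probe sets. Over 7 such comparisons 31 members were called at least once, with 50 calls in all, and 27 in none. Over all probe sets 66.0% were called at least once, with 1.65 calls per probe set, against 0.862 per member. Of the 50 calls 26 were also made with signals under 100 set to 100.

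Between the 5 non-seed tissues other than root and the 8 seed tissues, 7 members were higher in the non-seed tissues (background 15.4%) and 3 lower (background 11.1%). The largest difference was that of Zm.2376.1.A1_a_at of IIG1, which averaged 206 over the non-seed and 19.3 over the seed tissues, a log2 fold of 2.46 ± 0.21 (SE, limma adjusted p = 1.14e-12). It was not called with signals under 100 set to 100 (0.80), its leaf arrays read only 7.38 to 8.02, and Zm.2376.6.S1_x_at of the same gene, with -0.12 ± 0.12 (limma adjusted p = 0.360), was not called. Zm.11803.1.A1_at averaged 341 over the non-seed and 99.6 over the seed tissues, with a log2 fold of 1.70 ± 0.09 (limma adjusted p = 8.42e-18). It was the 1 member still called higher with signals under 100 set to 100. Zm.16176.1.A1_at averaged 90.5 over the non-seed and 220 over the seed tissues (log2 fold -1.20 ± 0.07, limma adjusted p = 1.36e-16). Trimmed mean signals were 1137 to 1253 on non-seed arrays and 894 to 1076 on seed arrays, so a difference in scaling cannot be told apart from the tissue in this comparison.

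Between stem and leaf, 6 members were higher in stem (background 19.1%) and 8 lower (background 15.5%). IIG1 gave the largest rise in stem. Its Zm.2376.1.A1_a_at read 285, 299 and 261 in stem, against 7.75, 8.02 and 7.38 in leaf, a log2 fold of 5.19 ± 0.52 (SE, limma adjusted p = 1.41e-10), which was 1.49 with signals under 100 set to 100. Its Zm.2376.6.S1_x_at read 372, 499 and 314 in stem, against 128, 132 and 149 in leaf (log2 fold 1.51 ± 0.29, limma adjusted p = 2.86e-05). The arrays of stem and leaf did not overlap for either probe set.

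LOC542505 was lower in stem. It read 68.2, 70.2 and 42.6 in stem, against 377, 304 and 460 in leaf, with no overlap and a log2 fold of -2.67 ± 0.40 (SE, limma adjusted p = 5.13e-07). In stem tip it read 74.6, 43.2 and 368, so that 1 of 3 arrays lay within the leaf range. The reductase gene opr3 read 34.0, 45.3 and 28.1 in stem, against 128, 104 and 169 in leaf (log2 fold -1.90 ± 0.30, limma adjusted p = 1.03e-06), and Zm.2445.1.A1_at was also lower in stem, with 20.5, 39.9 and 33.9, against 131, 110 and 98.5 in leaf (-1.89 ± 0.29, limma adjusted p = 6.90e-07). Neither opr3 nor Zm.2445.1.A1_at was called once signals under 100 were set to 100, whereas LOC542505 was, at -1.91. TIP1-2 was called lower in stem at a log2 fold of -1.03 ± 0.45 (limma adjusted p = 0.0463), with 26.8, 105 and 54.4 in stem, against 107, 100 and 120 in leaf. The 2 groups overlap, and the call was lost without replicate 1 (-0.54) and without replicate 3 (-0.97).

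Between silk and ear, 5 members were higher in silk (background 9.16%) and 0 lower (background 9.51%). An unadjusted limma p under 0.05 was found for 20 of 58 members, against 54.2% of all probe sets. Zm.2437.1.A1_at read 744, 320 and 1444 in silk, against 51.4, 54.2 and 82.1 in ear, a log2 fold of 3.52 ± 0.27 (SE, limma adjusted p = 1.39e-12). Zm.2376.1.A1_a_at of IIG1 read 835, 207 and 766 in silk, against 70.7, 135 and 14.2 in ear (3.31 ± 0.52, limma adjusted p = 2.78e-06). Zm.17119.1.S1_at read 696, 164 and 299 in silk, against 78.8, 99.98 and 110 in ear (1.76 ± 0.35, limma adjusted p = 7.91e-05). All silk arrays of these 3 probe sets lay above all ear arrays, and silk replicate 2 was the lowest silk array each time. The other calls were Zm.2376.6.S1_x_at of IIG1 (1.47 ± 0.29, limma adjusted p = 8.21e-05) and Zm.17268.1.S1_at (1.43 ± 0.48, limma adjusted p = 0.0147). The call of Zm.17268.1.S1_at was lost without replicate 2 (1.42) or without replicate 3 (1.49), and that of Zm.2376.6.S1_x_at without replicate 1 (0.96).

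**Figure D4:**
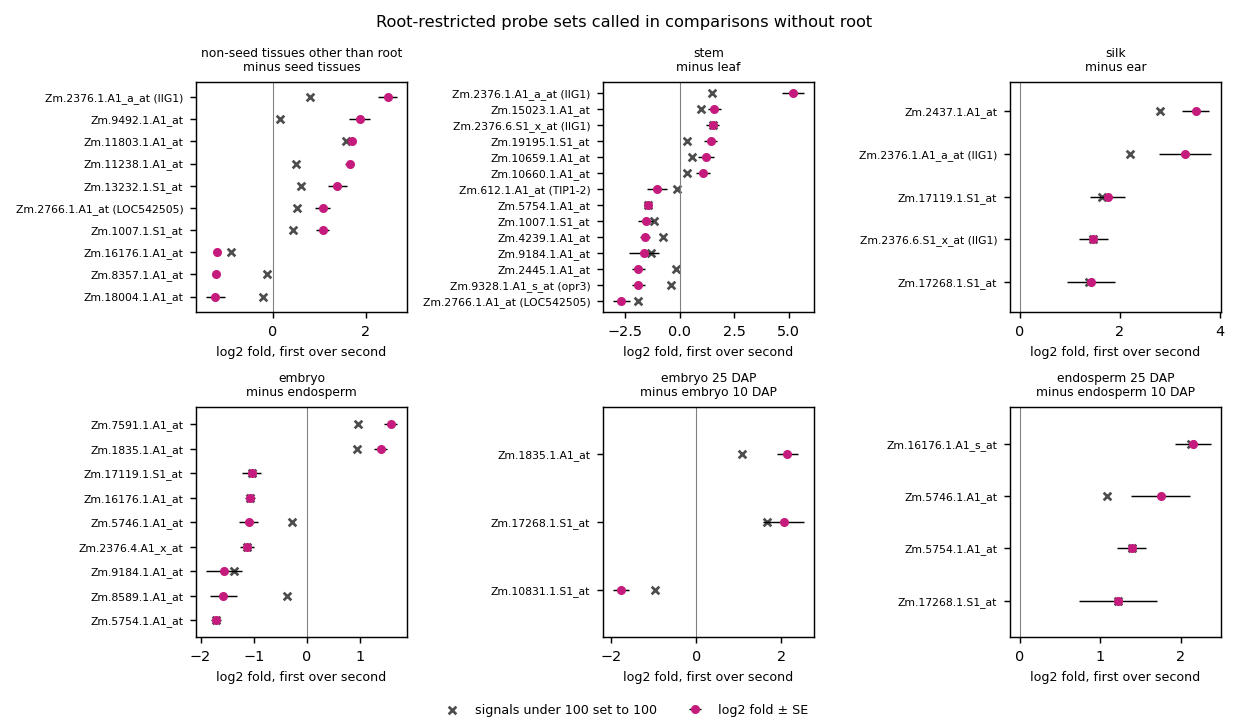
Log2 fold (first over second tissue group of each panel title, with SE bars) of the members called by limma in 6 comparisons without root arrays; crosses give the log2 fold with signals under 100 set to 100. The crosses lie closer to 0 for many members, and both IIG1 probe sets are higher in stem than in leaf and in silk than in ear, while only Zm.2376.1.A1_a_at is called higher in non-seed than in seed tissues, with a cross under a log2 fold of 1.

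Between embryo and endosperm, each averaged over its 4 ages, 2 members were higher in embryo (background 16.3%) and 7 lower (background 13.2%). The median log2 fold was -0.57 over members and -0.12 over all probe sets. Summed zein signals were 57114, 21632 and 32046 in embryo at 10 DAP and 3171, 3311 and 2988 at 25 DAP. At 15 DAP embryo replicate 2 had a zein sum of 48183, against 3813 and 4014 in replicates 1 and 3. Those of the 8 embryo probe sets were 7916, 8424 and 9288 in endosperm at 10 DAP and 17082, 17914 and 15880 at 25 DAP. How far these marker signals bear on the comparisons of embryo, endosperm and age was not tested. Zm.7591.1.A1_at and Zm.1835.1.A1_at were higher in embryo, with log2 folds of 1.58 ± 0.13 (SE, limma adjusted p = 3.50e-13) and 1.38 ± 0.12 (limma adjusted p = 4.97e-12). Neither was called once signals under 100 were set to 100. At 10 DAP Zm.1835.1.A1_at read lower in embryo, with 41.1, 44.7 and 59.8, against 70.4, 59.9 and 65.2 in endosperm. Zm.1835.2.A1_at of the same cluster had its highest mean outside root in endosperm at 25 DAP, 719. All 12 embryo arrays of Zm.7591.1.A1_at lay between 143 and 269, above all 12 endosperm arrays, between 46.6 and 101. Zm.5754.1.A1_at was lower in embryo, with a mean of 138 in embryo, against 498 in endosperm (-1.71 ± 0.09, limma adjusted p = 2.82e-18). Zm.8589.1.A1_at (-1.58 ± 0.25, limma adjusted p = 1.02e-06) and Zm.9184.1.A1_at (-1.57 ± 0.34, limma adjusted p = 9.41e-05) followed, and Zm.8589.1.A1_at was not called once signals under 100 were set to 100.

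With age, few members changed in the seed. In embryo at 25 DAP against 10 DAP, 2 members were higher (background 11.9%) and 1 lower (background 7.09%). Zm.1835.1.A1_at read 253, 187 and 198 at 25 DAP, against 41.1, 44.7 and 59.8 at 10 DAP (2.14 ± 0.25, SE, limma adjusted p = 1.12e-08), and Zm.17268.1.S1_at read 302, 293 and 351, against 67.9, 79.2 and 80.1 (2.06 ± 0.48, limma adjusted p = 0.000609). Zm.10831.1.S1_at read 64.3, 49.5 and 59.2 at 25 DAP, against 173, 179 and 248 at 10 DAP (-1.78 ± 0.19, limma adjusted p = 1.55e-09). The arrays of both ages did not overlap in any of the 3.

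In endosperm at 25 DAP against 10 DAP, 4 members were higher (background 11.5%) and 0 lower (background 4.84%). An unadjusted limma p under 0.05 was found for 14 of 58 members, against 56.0% of all probe sets. Apart from this comparison and silk against ear, that count ran from 12 members (interaction) to 47 (embryo against endosperm). The matching shares over all probe sets are not given here. Zm.16176.1.A1_s_at had the largest log2 fold, 2.16 ± 0.22 (SE, limma adjusted p = 1.45e-09), followed by Zm.5746.1.A1_at with 1.75 ± 0.37 (limma adjusted p = 0.000174) and Zm.5754.1.A1_at with 1.39 ± 0.18 (limma adjusted p = 7.74e-08). The fourth, Zm.17268.1.S1_at, read 225, 280 and 269 at 25 DAP, against 114, 111 and 106 at 10 DAP (1.22 ± 0.48, limma adjusted p = 0.0355), and its call was lost without replicate 2 (1.16) or without replicate 3 (1.16). It was thus called higher with age in both embryo and endosperm, whereas the other three were not called in embryo.

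The 2 age effects were set against each other in an interaction test, in which the age effect in embryo was more positive for 1 member (background 8.18%) and more negative for 4 (background 12.6%). Zm.1835.1.A1_at was the first, and Zm.5754.1.A1_at, Zm.5746.1.A1_at and both probe sets of Zm.16176 were the others. Zm.5754.1.A1_at, the member with the highest root signal, read 129, 108 and 132 at 25 DAP, against 136, 171 and 148 at 10 DAP in embryo. In endosperm it read 644, 442 and 613 at 25 DAP, against 217, 184 and 241 at 10 DAP, so that the ages overlap in neither tissue, with the later arrays lower in embryo and higher in endosperm. The difference in endosperm was called and that in embryo was not.

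**Figure D5:**
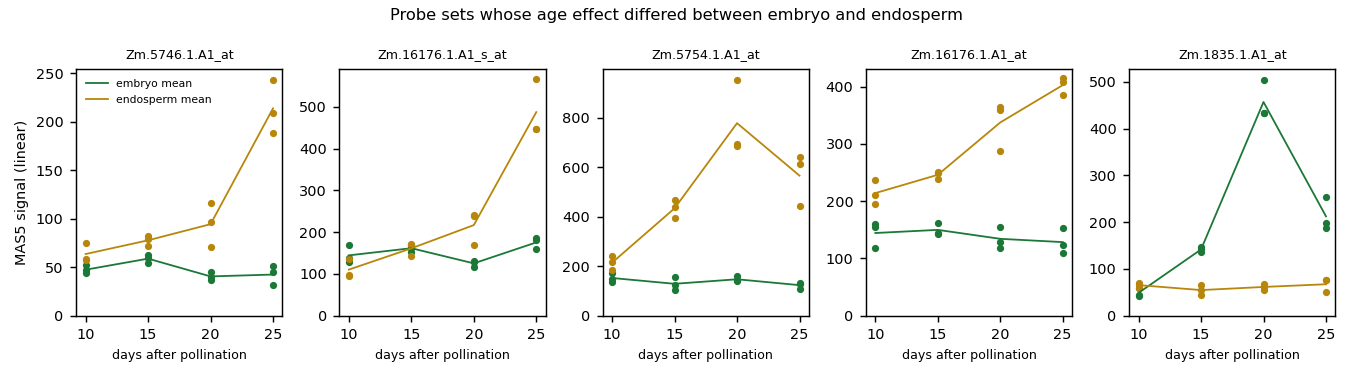
MAS5 signal (linear axis from 0, scaled to each panel) against days after pollination for the 5 members whose age effect differed between embryo and endosperm, with 1 point per array and lines through the means of 3 replicates. Zm.1835.1.A1_at is higher at later ages in embryo, with its highest mean, 457, at 20 DAP, and the other 4 panels show higher endosperm means at 25 than at 10 DAP.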

How the data were processed

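Expression was measured on 42 Affymetrix maize arrays. The authors summarised each probe set per array with MAS5, and the deposited values are signals, an intensity on a linear scale; the MAS5 version and scaling target are not given in the sources used here. The table holds 17734 probe sets (17555 maize, 66 reporters, 113 controls). Members were chosen on tissue means of the deposited intensity, and the members and gene lists were chosen with earlier results of these data known. Group means of log2 signal over 42 arrays were estimated in limma (version 3.58.1, under R 4.3.3, with an intensity trend in eBayes), and p-values adjusted by Benjamini-Hochberg over the 17621 non-control probe sets. A call needed an adjusted p under 0.05, at least 2-fold and a mean signal of at least 100 on the higher side (in the interaction, in at least 1 of its 4 groups). The fit was tested on simulated data. Descriptions used Python 3.11.15 with pandas 2.3.3 and numpy 2.4.6. Genes were matched by symbol and alias to a probe set table of the array and to RefSeq, so lists of lignin, cell wall and cytochrome P450 genes, defined by protein title, matched nothing, and the families of peroxidases, OPR, IIG, expansins, aquaporins, transferases, lipoxygenases and allene oxide genes were added after signals had been seen. Named genes were members with a gene name, the 10 largest ratios, the 5 highest root means, up to 3 members per direction and comparison, the 3 members on each side of the threshold, and the 3 widest and narrowest root spreads; others named were chosen after their values were seen. Alternatives were other normalizations, pseudocounts, filters, thresholds and left-out arrays. The number of arrays limits the precision.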

Additional observations from a re-analysis of the deposited data

Results flagged for a closer look

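The effect of age (25 against 10 DAP) differed between embryo and endosperm in 5 members by limma's interaction test. The log2 difference, age effect in embryo minus age effect in endosperm, was 2.12 ± 0.35 (SE) for Zm.1835.1.A1_at (limma adjusted p = 1.32e-05). It was -1.94 ± 0.52 for Zm.5746.1.A1_at (limma adjusted p = 0.00309), -1.87 ± 0.32 for Zm.16176.1.A1_s_at (limma adjusted p = 1.85e-05), -1.70 ± 0.25 for Zm.5754.1.A1_at (limma adjusted p = 2.26e-06) and -1.09 ± 0.25 for Zm.16176.1.A1_at (limma adjusted p = 0.000922). Both probe sets of Zm.16176 bear 1 cluster number and are not separate evidence. Zm.5746.1.A1_at lost its call without replicate 1 (-1.58). None of the 5 carries a gene name here.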

How the results depend on the processing

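The number of members was 58. It was 162 with a ratio of at least 4 and 29 with at least 16, and 59 to 69 without 1 root replicate, of which 47, 56 and 50 of the 58 were shared without root replicate 1, 2 and 3. Tissue medians gave 51 probe sets, 41 of them shared, and quantile normalization 49, all shared.

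Of the 50 calls, 20 held under all 14 settings, 30 were lost under at least 1 and 0 reversed; 24 were lost with signals under 100 set to 100 (chosen after seeing the data), 15 with a pseudocount of 32, 5 after median centring and 3 after quantile normalization, and 0 with the root arrays left out of the fit (also chosen after seeing the data). Setting signals under 100 to 100 left 1 member higher and 0 lower in non-seed against seed tissues, 2 higher and 3 lower in stem against leaf, 0 higher in embryo against endosperm and 0 lower in embryo with age. A pseudocount of 32 left 0 lower in non-seed tissues, 3 higher in stem and 4 lower in embryo against endosperm. Dropping the signal minimum gave 10 lower in non-seed tissues, 1 lower in silk against ear, 12 lower in embryo against endosperm, 4 higher and 2 lower in embryo with age and 2 lower in endosperm with age. Median centring gave 2 lower in embryo and 1 lower in endosperm with age, and quantile normalization 1 lower in endosperm with age and 2 higher in the interaction. Without single replicates 4 to 7 members were called higher in stem and 4 to 7 higher in silk. Beyond the construction of each setting, the causes were not tested. In the interaction, Zm.16176.1.A1_at lost its call after quantile normalization (-0.95) and with the pseudocount (-0.96), and Zm.5746.1.A1_at with signals under 100 set to 100 (-1.09).

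In the median, the replicate numbers did not pair the arrays. Deviations from the tissue means of same-numbered arrays correlated at a median of 0.00752 over 273 pairs (-0.469 to 0.501), against -0.00424 for different numbers. Of these pairs 44 lay above 0.1, and 20 of 42 arrays correlated best with their own number, so pairing among some tissues is not excluded. With the replicate number as a block all 50 calls held, and the counts were 7 higher and 3 lower (non-seed against seed), 6 and 8 (stem against leaf), 6 and 0 (silk against ear), 2 and 7 (embryo against endosperm), 2 and 1 and 4 and 0 (age in embryo and in endosperm) and 1 and 4 (interaction). With 3 arrays per tissue and signals near the floor outside root, differences between weak tissues are the least certain.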
